A study of Homo sapiens with 6 samples.

Results

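Extracellular matrix genes were followed in RNA sequencing of OCI-LY8, an established line grown from a human lymphoma of germinal centre B cells. The genes are the 125 rows of a count table with 26485 gene symbols whose symbol is that of a collagen chain, a laminin chain, an ADAMTS protease or a matrix metalloproteinase (MMP), or is 1 of 12 further names, from LUM and DCN to FN1, SPARC and HSPG2. Of these rows, 111 are taken as genes of matrix proteins or their proteases, with the pseudogene MMP23A counted among them. The other 14 matched by symbol only. They are antisense transcripts, other pseudogenes and COL4A3BP, the gene of a ceramide transfer protein that is no matrix component. There were 3 libraries from cells with the non-targeting guide sgNTC, labelled WT (control), and 3 from cells with a guide against SETD1B, a histone H3 lysine 4 methyltransferase, labelled SETD1B knockout. All were grown in RPMI with 10% serum. The series' design text describes a KMT2D mutant background but names OCI-LY19, whereas the 6 sample labels name OCI-LY8, which is used here. The libraries of a group carry 1 guide name, and the sources used here do not say whether they are clones, pools or separate cultures. The spread behind the p-values is therefore that between libraries and may be technical, and an effect of SETD1B loss cannot be told apart from other differences between the cells.

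The extracellular matrix is built mostly by fibroblasts and by epithelial and endothelial cells. Collagen chains wind into triple helices of like or unlike chains. Laminins join an alpha, a beta and a gamma chain into the sheet of basement membranes. Small leucine-rich proteoglycans such as lumican (LUM) and decorin (DCN) coat collagen fibrils and set their spacing, and MMP and ADAMTS proteases cut matrix proteins. B cells are not among the main producers of matrix.

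Each library held 28726108 to 34453249 counts, and 12907 genes passed the filter on low counts. On a principal component plot knockout replicate 3 lay away from its group (21.9 against -13.2 and -19.1 on the second principal component), so values without it are given for matrix genes whose call it changes. The SETD1B transcript was not lower under its guide (56.1 ± 3.25 CPM in controls, 77.5 ± 19.5 CPM in knockouts, edgeR adjusted p = 0.14). It was higher when knockout replicate 3 was left out (log2 0.66, edgeR adjusted p = 8.1e-07). The fit with the GC correction also called it higher (log2 0.50, edgeR adjusted p = 1.2e-05). A count over the whole gene does not check a guide's edit, so "knockout" is used as the label has it. B-cell markers were plentiful in all libraries, with a summed level of 2938 to 2963 CPM in controls and 3073 to 3696 CPM in knockouts. Of the 10 tested, 3 rose and 2 fell, beside 5.71% and 9.33% of all tested genes; MS4A1, the gene of CD20, fell (log2 -0.77, edgeR adjusted p = 0.0013) and PAX5, a B-cell transcription factor, rose (log2 0.66, edgeR adjusted p = 0.0040). Of 5 tested myeloid markers 4 fell and none rose, beside the same shares (summed level 22.5 to 28.1 CPM in controls and 10.9 to 15.9 CPM in knockouts); LYZ, TYROBP and CST3 lost their calls in 4, 3 and 5 of the 6 fits without 1 library, and ITGAM in none. The part of these markers in the results was not tested. CPM, edgeR's depth-scaled counts on TMM-scaled library sizes, are given as mean ± SD with n = 3. Each log2 fold change is that of the knockout over the control, tested by edgeR's quasi-likelihood method with Benjamini-Hochberg adjustment over all tested genes.

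Most matrix genes were silent or close to it. No read was counted in any library for 43 of the 125 rows, and another 48 had some counts but fell below the filter of 0.327 CPM in 3 libraries, which left 34 tested. Among the 111 matrix protein genes 34.2% were silent and 25.2% tested, against 22.3% and 59.4% of the 19091 protein-coding genes of the table. A count of 0 allows up to 3 counts, or 0.0870 to 0.104 CPM per library, and covers counting error only. With silence taken as at most 2 counts over all libraries, 60 rows were silent.

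The silent genes included the standard products of fibroblasts. FN1, the gene of fibronectin, COL3A1 of fibrillar collagen III, and COL6A1 and COL6A2 of collagen VI had 0 counts in all 6 libraries. COL1A2 had 1 count in all and SPARC 4, while COL1A1, which pairs with COL1A2 in collagen I, had 32 control and 14 knockout counts. Of the 19 ADAMTS genes 10 were silent, among them the aggrecanase gene ADAMTS5. Of the 24 MMP rows 11 were silent, among them the gelatinase gene MMP2 and the pseudogene MMP23A. MMP9, the other gelatinase gene, had 2 counts. ADAMTS1, ADAMTS5, COL6A1 and COL6A2 lie on chromosome 21 and were at 0 in both groups. COL18A1, also on that chromosome, had 37 control and 16 knockout counts and was below the filter.

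**Figure D1:**
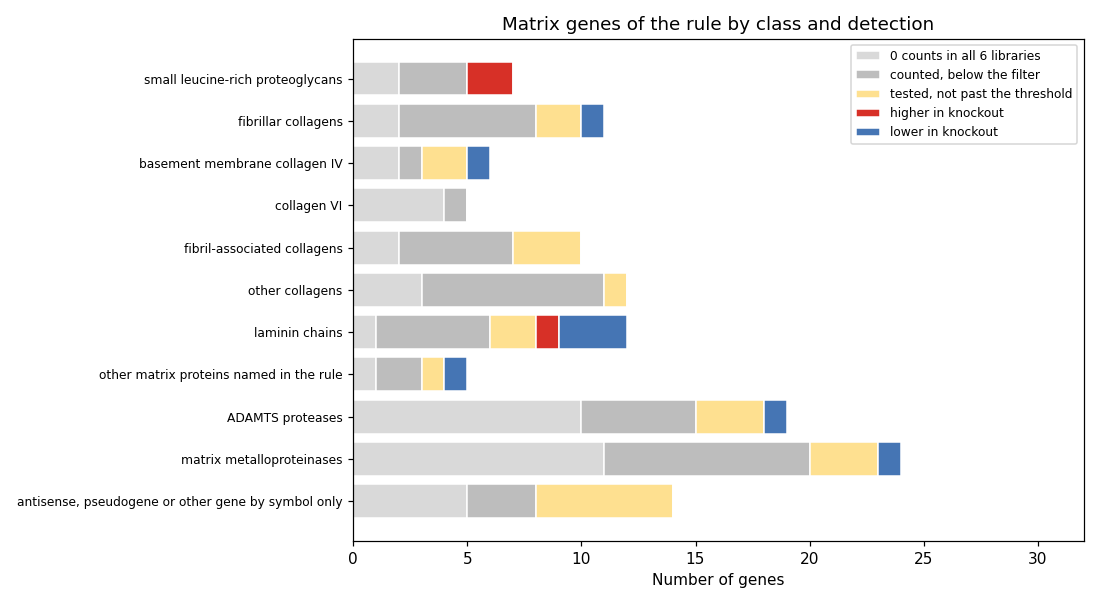
Number of genes (x axis) in each class of the 125 matrix rows (y axis), split by detection and test result over 6 libraries. Silent genes and genes below the filter make up most of each class other than laminin chains and collagen IV, and the calls are 3 higher and 8 lower in the knockout.

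Of the 34 tested rows 3 were higher in the knockouts, 8 were lower and 23 did not pass. This is 11 calls beside 15.0% of all tested genes, with 5.71% of all tested genes higher and 9.33% lower. The median log2 fold change was 0.06 over the 34 rows and -0.01 over all tested genes. In 7 of the 34 rows every library at the filter level belonged to 1 group, so these had to differ to be tested at all, and 5 of the 11 calls are among them (LUM, DCN, HMCN1, ADAMTS18 and COL24A1). The groups did not overlap in 18 of the 34 rows, beside 37.7% of all tested genes. Without knockout replicate 3, 12 matrix rows were higher and 10 lower, among them the same 11, beside 21.6% and 22.8% of all genes tested there. With the replicate block 2 were higher and 8 lower, beside 3.49% and 6.79% of all tested genes, and with the stricter filter of 1 CPM in 3 libraries 1 and 6, beside 6.11% and 10.1%.

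**Figure D2:**
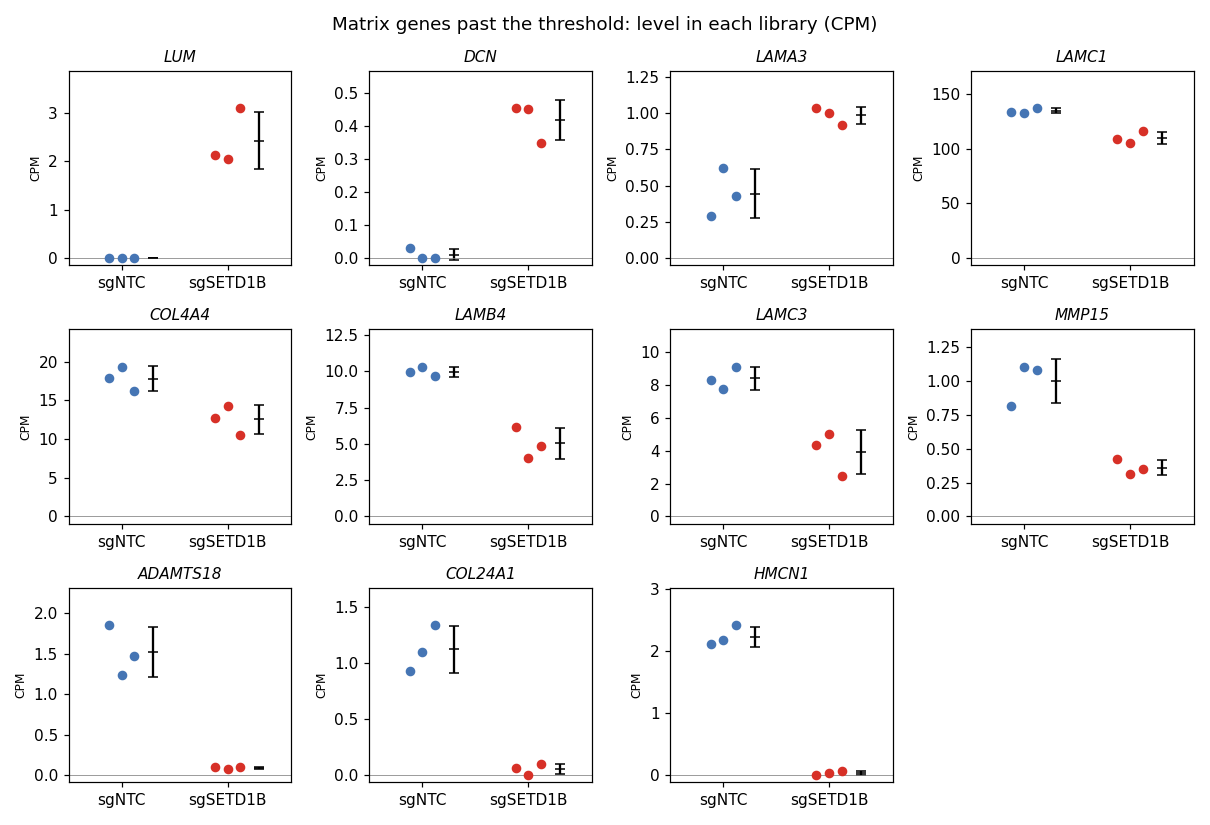
CPM (y axis, linear) of the 11 matrix genes past the threshold in each sgNTC control (blue) and sgSETD1B knockout (red) library, with mean and SD (bars, n = 3). LUM and DCN are at or near 0 in the controls, and HMCN1, COL24A1 and ADAMTS18 at or near 0 in the knockouts. The groups do not overlap in any panel, beside 37.7% of all tested genes.

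Lumican and decorin transcripts appeared in the knockout libraries. LUM (chromosome 12, 91102629 to 91111831, minus strand, hg38) had 0, 0 and 0 counts in the controls and 66, 59 and 98 in the knockouts, or 2.43 ± 0.585 CPM. Its level was at least 25.2-fold higher, with each control library set to the floor of 3 counts (edgeR adjusted p = 9.9e-04). In RNA from whole cultures, a few cells with much LUM and many cells with little cannot be told apart. DCN, 28.7 kb away (91140484 to 91183123, minus strand), had 1, 0 and 0 counts against 14, 13 and 11. The knockout to control ratio of its summed counts was 39.1, with a 95% exact counting interval of 6.61 to 1580 (edgeR adjusted p = 0.0036). All knockout libraries lay above all controls for both genes, while the groups did not overlap in 37.7% of all tested genes. Both reached the filter level in the knockouts only, so they had to differ to be tested and the separation adds no support. Both were known from earlier results of these data and are described here, not discovered. Even in the knockouts the levels were low, and decorin stood at 0.417 ± 0.0599 CPM.

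Other genes of their cluster and family were mostly silent or below the filter. KERA, the gene of the corneal proteoglycan keratocan, and EPYC, that of the cartilage proteoglycan epiphycan, lie on the other side of LUM, KERA at 44.7 kb, and had 0 counts in all 6 libraries. Of the 7 genes of the table within 1 Mb of LUM 4 were silent, and the only other tested one was the non-coding gene C12orf79, 873 kb away. Its level was 4.47 ± 0.412 CPM in controls and rose to 8.49 ± 0.241 CPM (log2 0.93, SE 0.11, edgeR adjusted p = 0.0017). Relatives at other loci were below the filter and not tested: biglycan (BGN) had 26 control and 16 knockout counts, osteoglycin (OGN) 5 and 1, and fibromodulin (FMOD) 0 and 3. Tsukushi (TSKU), also of this family, was tested and fell (log2 -0.70, edgeR adjusted p = 0.014), a call lost in 3 of the 6 fits without 1 library.

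Defining fibroblast genes did not appear with LUM and DCN. Of 15 fibroblast and mural cell markers 6 were at 0 in every library, including PDGFRA, PRRX1 and TWIST1. PDGFRB had 7 control and 0 knockout counts, and THY1 had 1 and 1. Of the 3 tested markers S100A6 fell (log2 -0.73, edgeR adjusted p = 0.023, not called in 4 of the 6 fits without 1 library), while TAGLN and ACTA2 did not pass. Without knockout replicate 3 ACTA2 was higher (log2 0.92, edgeR adjusted p = 0.014), and after the GC correction it did not pass (log2 0.74, edgeR adjusted p = 0.056). The summed level of the list was 8.20 to 9.36 CPM in the controls and 5.69 to 8.22 CPM in the knockouts. Of the 11 endothelial markers 4 were at 0 throughout, KDR and TEK among them, and VWF and CDH5 had 2 and 1 counts, while of the 3 tested ones PECAM1 rose and FLT1 and ESAM fell, with the calls of PECAM1 and ESAM lost in 5 and 4 of the 6 fits without 1 library (summed level 53.2 to 56.4 CPM in controls, 39.7 to 43.1 CPM in knockouts). Of the 7 epithelial markers 4 were at 0, and the summed level was 0.311 to 0.464 CPM in the controls and 0.443 to 0.936 CPM in the knockouts. Of the 5 follicular dendritic cell markers FDCSP and CXCL13 had 0 and 1 counts, and of the 2 tested ones TNFSF13B rose (log2 1.15, edgeR adjusted p = 0.0054). Their summed level was 49.6 to 54.7 CPM in controls and 33.4 to 52.2 CPM in knockouts. The calls in all these marker lists stand beside 5.71% higher and 9.33% lower of all tested genes.

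A protease, a collagen and hemicentin-1 showed the opposite pattern and were nearly lost. HMCN1, which encodes the large adhesive matrix protein hemicentin-1 (chromosome 1, 185734551 to 186190949), had 73, 63 and 74 counts in the controls and 0, 1 and 2 in the knockouts. The control to knockout ratio was 68.0, with a counting interval of 23.0 to 333 (edgeR adjusted p = 2.0e-04). ADAMTS18, an ADAMTS protease gene (chromosome 16, 77247813 to 77435114), had 64, 36 and 45 counts against 3, 2 and 3, a ratio of 17.6 (8.70 to 41.6, edgeR adjusted p = 3.8e-04). COL24A1, a minor fibrillar collagen gene known from bone (chromosome 1, 85729233 to 86156943), had 32, 32 and 41 counts against 2, 0 and 3, a ratio of 20.4 (8.47 to 64.2, edgeR adjusted p = 0.0017). In each of the 3 genes the highest knockout library was far below the lowest control. All 3 reached the filter level in the controls only, so they had to differ to be tested and the separation adds no support. They lie far apart in the genome, and the tested neighbours of ADAMTS18 within 100 kb (MON1B, log2 -0.22, and SYCE1L, log2 0.36) and of COL24A1 (ZNHIT6, log2 0.08) did not pass. MON1B was lower after the GC correction (log2 -0.20, edgeR adjusted p = 0.025) and without knockout replicate 3 (log2 -0.14, edgeR adjusted p = 0.0091).

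SETD1-type methyltransferase complexes are known to bind CpG-rich promoters. Promoter sequence is shown for the nearly lost genes with a window, ADAMTS18 and COL24A1, for the neighbouring COL4A4 and COL4A3, and for LAMB4, which has the fewest CG dinucleotides among the called genes. Each window runs from 250 bases before to 50 bases after the RefSeq start (GRCh38.p14, 5′ to 3′ on the gene's strand), and capitals mark each CG, the only motif searched, which reads the same on both strands. LUM, DCN, HMCN1 and LAMC3 have no window in the table used.
ADAMTS18 (chr16:77434985-77435284, minus strand): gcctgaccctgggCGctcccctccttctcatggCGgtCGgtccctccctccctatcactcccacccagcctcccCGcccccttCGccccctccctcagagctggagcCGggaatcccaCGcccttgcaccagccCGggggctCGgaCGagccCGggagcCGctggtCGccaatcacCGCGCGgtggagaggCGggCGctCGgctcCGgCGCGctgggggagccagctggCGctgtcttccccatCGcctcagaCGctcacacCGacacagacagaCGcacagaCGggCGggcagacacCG
COL24A1 (chr1:86156723-86157022, minus strand): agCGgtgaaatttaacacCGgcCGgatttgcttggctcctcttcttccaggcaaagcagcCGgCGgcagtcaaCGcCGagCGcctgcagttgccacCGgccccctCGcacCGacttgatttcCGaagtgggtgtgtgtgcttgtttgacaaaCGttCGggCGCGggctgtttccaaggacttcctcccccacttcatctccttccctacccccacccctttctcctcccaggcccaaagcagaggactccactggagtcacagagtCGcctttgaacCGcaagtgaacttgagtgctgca
COL4A4 (chr2:227164156-227164455, minus strand): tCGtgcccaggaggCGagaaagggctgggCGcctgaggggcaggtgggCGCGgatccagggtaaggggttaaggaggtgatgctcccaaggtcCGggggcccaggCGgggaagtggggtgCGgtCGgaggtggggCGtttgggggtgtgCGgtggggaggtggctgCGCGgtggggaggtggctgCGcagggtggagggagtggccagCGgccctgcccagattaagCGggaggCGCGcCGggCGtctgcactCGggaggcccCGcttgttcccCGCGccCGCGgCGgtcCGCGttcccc
COL4A3 (chr2:227164374-227164673, plus strand): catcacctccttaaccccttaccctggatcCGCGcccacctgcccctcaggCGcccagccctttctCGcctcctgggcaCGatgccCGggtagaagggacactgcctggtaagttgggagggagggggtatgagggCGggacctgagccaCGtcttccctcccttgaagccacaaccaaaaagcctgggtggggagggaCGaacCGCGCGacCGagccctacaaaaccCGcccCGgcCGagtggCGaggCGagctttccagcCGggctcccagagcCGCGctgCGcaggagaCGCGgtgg
LAMB4 (chr7:108130312-108130611, minus strand): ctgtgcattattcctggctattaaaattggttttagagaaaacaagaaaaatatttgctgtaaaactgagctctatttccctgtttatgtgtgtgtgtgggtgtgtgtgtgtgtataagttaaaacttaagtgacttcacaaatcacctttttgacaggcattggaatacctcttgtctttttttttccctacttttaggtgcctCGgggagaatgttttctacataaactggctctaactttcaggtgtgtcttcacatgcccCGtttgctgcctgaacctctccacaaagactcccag

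These windows hold 30 CG for ADAMTS18, 18 for COL24A1, 29 for COL4A4, 24 for COL4A3 and 2 for LAMB4, around a median of 21 over all 17371 windows. At least as many were found in 28.9%, 57.9%, 31.4%, 44.1% and 93.2% of all windows. The ratio of observed to expected CG reached 0.6 in 15 of the 21 tested matrix protein genes with a window (71.4%), 15 of 33 below the filter (45.5%) and 7 of 19 silent ones (36.8%). Over all protein-coding genes of the table the shares were 82.6%, 48.7% and 36.5%, so silent and tested matrix genes were ordered as other genes were. Among the genes that fell, the windows held between 2 CG (LAMB4) and 41 CG (LAMC1), and MMP15 had 39.

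Among the laminins, the beta and gamma chains fell and an epithelial alpha chain rose. LAMC1, the gamma chain of most laminins, was the matrix gene with the highest level per kilobase of exon, at 16.0 ± 0.257 CPM per kb in the controls and 13.1 ± 0.680 in the knockouts. Its counts were 4628, 3856 and 4196 against 3359, 3028 and 3672, a fall of 1.23-fold (log2 -0.29, SE 0.06, edgeR adjusted p = 0.014). LAMC3, the gamma-3 chain, stood at 8.41 ± 0.682 CPM in controls and 3.93 ± 1.34 in knockouts, a 2.15-fold fall (log2 -1.10, SE 0.24, edgeR adjusted p = 0.027). LAMB4, a little studied beta chain, had 343, 299 and 295 counts against 191, 117 and 154 and fell 1.98-fold (log2 -0.98, SE 0.15, edgeR adjusted p = 0.0063). LAMC1 and LAMC3 each passed in 2 of the 6 fits that left out 1 library, those without knockout replicate 2 and without knockout replicate 3, and their highest edgeR adjusted p values were 0.10 and 0.11.

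LAMB1, the common beta-1 chain and a neighbour of LAMB4 on chromosome 7, had 38, 42 and 32 counts against 22, 20 and 12. Its log2 fold change of -1.01 (SE 0.28) just missed the threshold (edgeR adjusted p = 0.052) and passed after the GC correction and without knockout replicate 3 (0.016 and 0.029). LAMA3, the alpha-3 chain of epithelial laminins, rose from 10, 18 and 13 counts to 32, 29 and 29 (log2 1.16, SE 0.28, edgeR adjusted p = 0.034). That call ended with DESeq2, with the replicate block and in 4 of the 6 fits without 1 library, where the edgeR adjusted p reached 0.13. The epithelial marker CLDN4 did not pass (log2 0.97, edgeR adjusted p = 0.11). It was higher after the GC correction (log2 1.01, edgeR adjusted p = 0.022) and without knockout replicate 3 (log2 1.22, edgeR adjusted p = 0.0087). LAMA5, the alpha-5 chain and second in level at 9.73 ± 0.162 CPM per kb in the controls, did not pass (log2 -0.14, edgeR adjusted p = 0.85). Its counts were 4884, 4013 and 4188 against 4620, 4988 and 1818, so a single knockout library lay far below the rest, and without that library LAMA5 was higher (log2 0.21, edgeR adjusted p = 0.0080).

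The chains that join in 1 laminin were not counted in like amounts. In the controls LAMC1 stood 1.61 to 1.70 times above LAMA5 per kb of exon, but 88.9 to 127 times above LAMB1 and 10.8 to 11.9 times above LAMB4. In the knockouts the LAMC1 to LAMB1 ratio was 147 to 296. LAMB2 had 4 control and 5 knockout counts, LAMB3 7 and 2, and the alpha chain gene LAMA1 0 and 0.

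Collagens showed the same uneven make-up. Collagen IX, a fibril-associated collagen of cartilage, was represented by COL9A3 (4.89 ± 0.0661 CPM per kb in the controls) and COL9A2 (4.62 ± 0.248), whereas its alpha-1 chain gene COL9A1 had 2 counts in all. Neither COL9A3 (log2 0.18) nor COL9A2 (log2 0.09) passed, with edgeR adjusted p of 0.53 and 0.86. Without knockout replicate 3 both were higher (log2 0.34 and 0.36, edgeR adjusted p = 0.0014 and 6.8e-04). COL4A3 and COL4A4, whose chains join COL4A5 in the basement membrane of the kidney glomerulus, were tested, while COL4A5 and COL4A6 had 0 counts and COL4A1 had 1. COL4A2 had 42 control and 75 knockout counts (log2 0.88, edgeR adjusted p = 0.073), and passed after the GC correction and without knockout replicate 3 (0.018 and 0.016).

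COL4A4 and COL4A3 are read in opposite directions from neighbouring starts, and the sequences shown above overlap by 82 bases. COL4A4 stood at 17.8 ± 1.605 CPM in controls and fell to 12.5 ± 1.88 CPM (log2 -0.51, SE 0.13, edgeR adjusted p = 0.039), a call made in 2 of the 6 fits without 1 library (highest adjusted p 0.16). COL4A3 did not pass (4.04 ± 0.537 against 4.50 ± 0.646 CPM, log2 0.16, edgeR adjusted p = 0.58). Within a library the ratio of COL4A4 to COL4A3 counts was 5.22, 4.45 and 3.71 in the controls and 2.49, 3.13 and 2.76 in the knockouts. The groups did not overlap in this ratio, nor in the level of COL4A4 alone, beside 37.7% of all tested genes for single-gene levels. The ratio rests on the same COL4A4 counts as the call, so its separation is no separate support. The exact two-sided permutation p was 0.10, the smallest that 3 against 3 libraries allow. This test could therefore not reach the threshold used here, and it decides nothing about the pair. Of the fibrillar collagens, COL5A2 (106 control and 148 knockout counts) and COL5A1 (68 and 52) did not pass (edgeR adjusted p = 0.14 and 0.51). Without knockout replicate 3 COL5A2 was higher (log2 0.69, edgeR adjusted p = 0.011). COL7A1, the collagen of skin anchoring fibrils, stood at 5.32 ± 0.339 and 6.89 ± 2.16 CPM (log2 0.37, edgeR adjusted p = 0.35). Without knockout replicate 3 it was higher (log2 0.60, edgeR adjusted p = 0.0012), as after the GC correction (0.0057). COL19A1 stood at 1.02 ± 0.412 and 1.14 ± 0.246 CPM (edgeR adjusted p = 0.78).

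**Figure D3:**
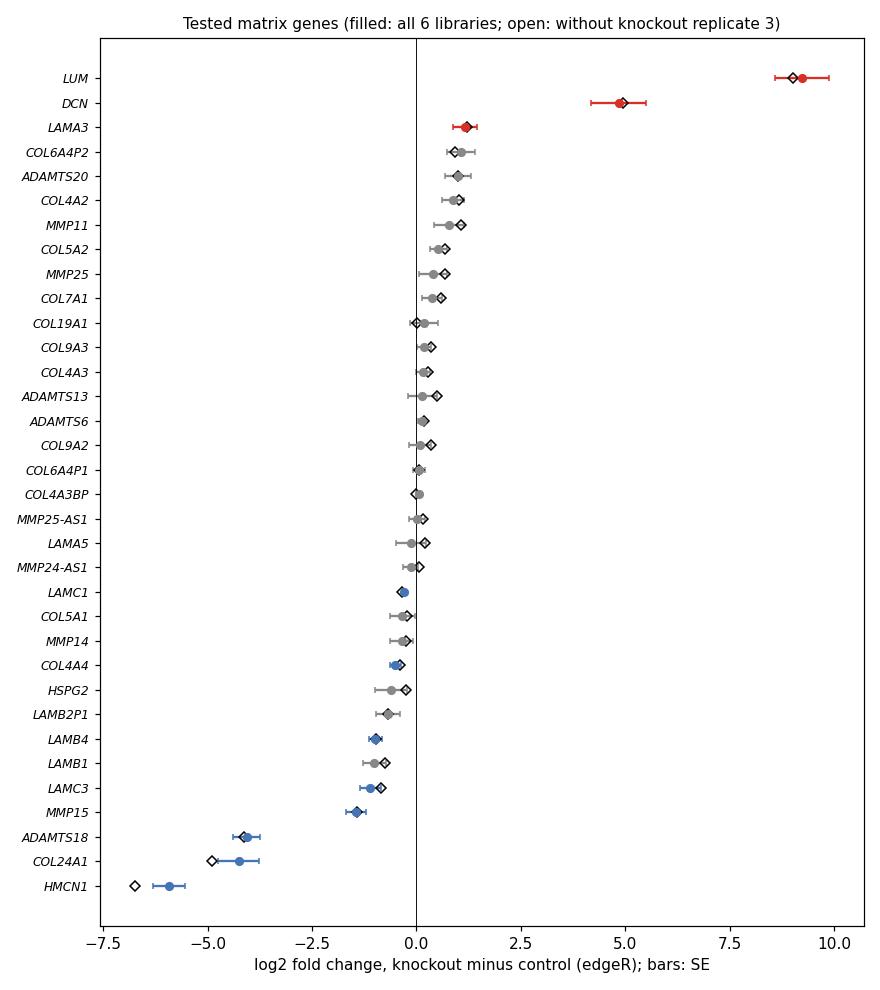
Log2 fold change, knockout minus control (x axis), of the 34 tested matrix rows (y axis) from edgeR with all 6 libraries (filled, bars SE; red higher, blue lower, grey not past the threshold) and without knockout replicate 3 (open diamonds). The fitted values of LUM and DCN depend on the prior count since their controls are at or near 0; LAMA5, MMP24-AS1 and COL4A3BP change sign between the 2 fits, none of them called with all libraries.

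Among the proteases, 1 membrane-type MMP fell. MMP15, a membrane-anchored metalloproteinase, had 28, 32 and 33 counts in the controls and 13, 9 and 11 in the knockouts, and fell 2.73-fold (log2 -1.45, SE 0.25, edgeR adjusted p = 0.0085). MMP14, the membrane-type enzyme that activates MMP2, had 73, 30 and 51 counts against 44, 38 and 34 and did not pass (log2 -0.35, edgeR adjusted p = 0.46). MMP25, a membrane-type MMP of leukocytes, and the stromelysin gene MMP11 had log2 fold changes of 0.40 and 0.77 (edgeR adjusted p = 0.48 and 0.21). Both were higher without knockout replicate 3, MMP25 at log2 0.69 and MMP11 at log2 1.06 (edgeR adjusted p = 0.016 for each). ADAMTS13, which cleaves von Willebrand factor, stood at 4.21 ± 0.126 and 4.66 ± 2.20 CPM, ADAMTS6 at 5.44 ± 0.143 and 5.96 ± 0.500 CPM, and ADAMTS20 had 22 and 43 counts. None of these 3 passed (edgeR adjusted p = 0.84, 0.47 and 0.071). Without knockout replicate 3 ADAMTS13 moved from log2 0.14 to 0.49 and was higher (edgeR adjusted p = 0.0046). HSPG2, the gene of the basement membrane proteoglycan perlecan, had 353, 305 and 271 counts against 209, 285 and 88 (log2 -0.61, edgeR adjusted p = 0.36). Its log2 fold change was -0.25 without knockout replicate 3 (edgeR adjusted p = 0.19), and it passed after the GC correction (-0.63, 0.028).

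Of the 15 rows below the filter with at least 10 counts, 10 had more counts in the controls, among them ADAMTS14 (34 and 13), ADAMTS17 (18 and 5), ADAMTS7 (18 and 10), LAMA4 (7 and 4), LAMA5-AS1 (9 and 6), MMP28 (9 and 4) and, given above, BGN, COL1A1 and COL18A1. LAMA2 (13 and 24), MMP21 (4 and 10) and COL6A3 (17 and 18) had more in the knockouts, and COL12A1 (6 and 6) and COL28A1 (9 and 9) had equal numbers. An edgeR fit without the filter tested 82 of the 125 rows and called none of these 15, while COL18A1 passed the filter and was lower without knockout replicate 3 (log2 -1.36, edgeR adjusted p = 0.041). Of the symbol-only rows 6 were tested and none passed: COL4A3BP (52.1 ± 2.32 and 54.1 ± 4.72 CPM), MMP24-AS1, MMP25-AS1, COL6A4P1, COL6A4P2 and LAMB2P1, with edgeR adjusted p of 0.077 to 0.995. Since the strand setting of the counting is not stated in the sources used, reads of MMP25 and MMP25-AS1, or of LAMA5 and LAMA5-AS1, cannot be told apart, and pseudogenes are uncertain because the handling of reads that fit several copies is not stated.

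Knockout replicate 3 was low in matrix genes rich in GC. In the 12 tested rows with a transcript GC content of at least 60%, its median log2 ratio to the mean of knockout replicates 1 and 2 (CPM + 0.1) was -0.91, and in the 21 others with a known GC content it was -0.07. All tested genes gave -0.73 (1734 genes) and 0.07 (10727 genes). HSPG2 (64.5% GC), LAMA5 (66.4%) and ADAMTS13 (64.1%) had the lowest ratios, of -1.55, -1.49 and -1.42. The part of GC content in the results was not tested beyond the GC correction, after which 7 rows were higher (ADAMTS20, COL4A2, COL6A4P2 and COL7A1 added) and 10 lower (HSPG2 and LAMB1 added), beside 17.7% and 19.5% of all genes.

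**Figure D4:**
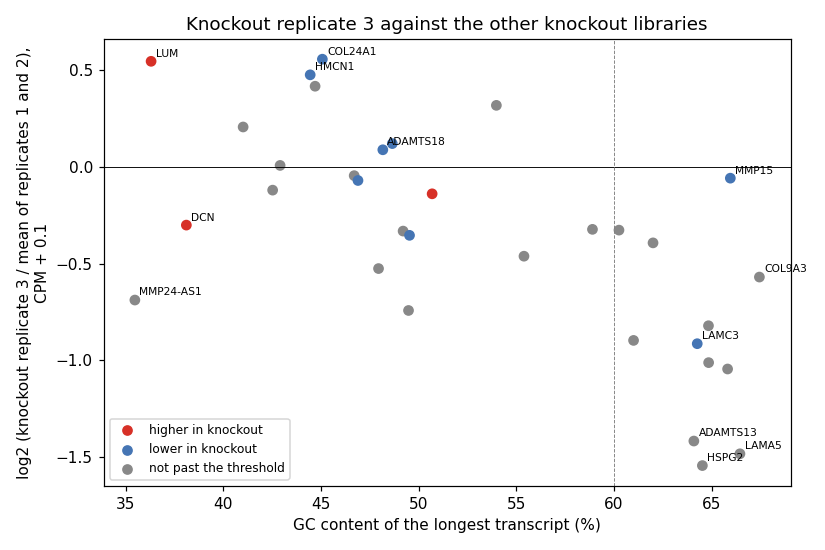
GC content of the longest transcript in percent (x axis) against the log2 ratio of knockout replicate 3 to the mean of knockout replicates 1 and 2 in CPM + 0.1 (y axis) for 33 tested matrix rows; the dashed line marks 60%. All 12 rows at or right of the line are below 0, from -0.06 for MMP15 to -1.55 for HSPG2.

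Genes that process collagen and build proteoglycan chains were either lower in the knockouts or did not pass. Of 28 collagen processing genes 17 were tested, and 5 fell and none rose, beside 9.33% lower and 5.71% higher of all tested genes. PPIB, a prolyl isomerase of the endoplasmic reticulum, went from 564 ± 27.7 CPM down to 392 ± 19.9 CPM (log2 -0.53, edgeR adjusted p = 0.0018), CRTAP, a part of the prolyl 3-hydroxylase complex, by 0.33 on the log2 scale and the lysyl hydroxylase gene PLOD1 by 0.61. Of 35 genes of glycosaminoglycan chain synthesis 27 were tested, and 6 fell and none rose, beside the same shares of 9.33% and 5.71%. NDST1, which starts heparan sulphate sulphation, went from 19.4 ± 1.03 CPM down to 8.66 ± 0.985 CPM (log2 -1.16, edgeR adjusted p = 6.5e-04), the chondroitin sulphotransferase gene CHST15 by 0.75 on the log2 scale and UST by 0.69. The median log2 fold changes over the tested genes of these lists were -0.19 and -0.10.

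The 4 other lists are likewise read beside 5.71% higher and 9.33% lower of all tested genes. Of 17 tested genes for other matrix proteins 2 rose, the fibrillin gene FBN1 (1.21 ± 0.221 to 2.28 ± 0.0979 CPM, edgeR adjusted p = 0.014) and ECM1, and 2 fell, the serglycin gene SRGN and TSKU. Of 12 tested matrix receptors 2 fell and none rose: LAIR1, an inhibitory collagen receptor of leukocytes (0.965 ± 0.338 to 0.187 ± 0.0257 CPM, edgeR adjusted p = 0.0081), and the dystroglycan gene DAG1. Of 11 tested inhibitors and ADAM proteases ADAM19 rose (log2 0.58), and ADAM28 (log2 -2.59) and the MMP inhibitor TIMP2 (log2 -0.50) fell. Of 13 tested TGF-beta pathway genes 3 rose, namely SMAD7, an inhibitor of the pathway (3.90 ± 0.101 to 6.71 ± 0.659 CPM, edgeR adjusted p = 0.0046), LRRC32 (log2 1.51) and SKIL (log2 0.39). In that list 5 fell, and those with the smallest adjusted p were SMAD4 (log2 -0.36), SMAD2 (log2 -0.38) and TGFB3 (log2 -1.0005). The medians of these 4 lists were -0.12, 0.03, -0.07 and -0.25. Of the 21 called genes named from all 6 lists, 10 lost the call in 1 or more of the 6 fits without 1 library: ECM1, TGFB3 and TIMP2 in 4, DAG1, TSKU, SKIL and SMAD2 in 3, FBN1 and SRGN in 2 and CRTAP in 1, with edgeR adjusted p up to 0.098.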

How the data were processed

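Deposited by the authors were raw counts of reads by gene symbol in 6 libraries, all whole numbers, and a second table with log2 values of 12029 genes. Per the labels, libraries were made from column-purified RNA with a stranded poly(A) kit. The submitters' processing notes name hg38 and the tools featureCounts, HISAT2, Trimmomatic, DESeq2 and CASAVA 1.8; the annotation and strand setting are not stated in the sources used. Each log2 value of the authors is their count scaled by a factor of its library (0.949 to 1.14), so these values were used only for that check; 24 of the 34 tested matrix rows are in that table, and it has 38 entries without a value. No column was left unused (0 in the count table).

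Titles gave each sample's group and replicate number. The main fit was edgeR 4.0.16 in R 4.3.3 (filterByExpr with a minimum count of 10, TMM scaling, robust quasi-likelihood test, group as the term), with an adjusted p under 0.05 as the threshold; it was tested on simulated data. Standard errors (SE) come from the F statistic, as log2 change / sqrt(F). GENCODE 29 on the same build gave positions, exon-union lengths and GC content for 23899 symbols matched directly and 683 through another symbol (1903 unmatched). Counting intervals are exact (Clopper-Pearson, 95%) and cover counting error only. No libraries of a group agreed within sampling noise (chi-square per degree of freedom 1.83 or more). Alternatives were RLE scaling, library size only, no filter, a filter of 1 CPM in 3 libraries, DESeq2 1.42.0, limma-voom (limma 3.58.1), the replicate number as a block, a GC correction (a lowess trend on GC content per library, as an offset), each library left out, and other thresholds.

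The genes and lists were chosen with earlier results of these data known. Named by rule were all called matrix genes, the small leucine-rich proteoglycans, the 10 highest levels per kilobase, rows below the filter with at least 10 counts, tested genes within 1 Mb of LUM, and up to 3 called genes per direction of each other list; further genes were named after their values were seen. Some items are not reported here.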

Additional observations from a re-analysis of the deposited data

How the results depend on the processing

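Of the 11 called matrix genes, 7 (LUM, DCN, HMCN1, ADAMTS18, COL24A1, LAMB4 and MMP15) passed in every one of the 14 alternative fits that tested them. COL4A4, LAMC1, LAMC3 and LAMA3 did not. Since LUM, DCN, HMCN1, ADAMTS18 and COL24A1 reached the filter level in 1 group only, their passing in fits of the same libraries adds no support. Higher matrix genes numbered 7 after the GC correction and 1 with the stricter filter (24 rows tested, without DCN and LAMA3). Lower ones numbered 5 at an adjusted p under 0.01 and 5 with at least 2-fold change. Over all genes the count of 1941 became 4635 after the GC correction, 828 at an adjusted p under 0.01 and 403 with at least 2-fold change. Leaving out each library in turn gave 779 to 5795 genes, 2 to 12 higher and 5 to 10 lower matrix genes, each highest without knockout replicate 3. Among the genes named with a fold change, sign changes were seen only in those that were not called: MMP25-AS1 (-0.016 with library size only, -0.0149 with limma-voom, -0.0008 without a filter, -0.011 with the replicate block, -0.0023 with the stricter filter), and ADAMTS13 (-0.007 with limma-voom). Without single libraries the log2 fold changes spanned -0.1838 to 0.1484 for MMP25-AS1, -0.1193 to 0.4914 for ADAMTS13, -0.0166 to 0.1247 for COL4A3BP, -0.0253 to 0.1401 for COL6A4P1, -0.277 to 0.0572 for MMP24-AS1, -0.1364 to 0.4043 for COL19A1, -0.0718 to 0.3565 for COL9A2, -0.4255 to 0.2118 for LAMA5, -0.0062 to 0.2579 for the B-cell marker CD79A, -0.0317 to 0.1991 for TAGLN, -0.1858 to 0.6405 for SYCE1L and -0.0244 to 0.1394 for ZNHIT6. The cause was not tested.

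Same-numbered libraries showed no common deviation (correlations of 0.002, -0.18 and 0.17), and control replicate 1 correlated best with knockout replicate 2 (0.34). With 3 libraries per group this check cannot exclude a pairing by number. With the replicate block 1326 genes, 2 higher and 8 lower matrix genes passed. Without the filter 82 of the 125 matrix rows were tested, and 3 were higher and 9 lower, while 1905 genes of all passed. The share of all genes tested in that fit was not taken, so these matrix counts are not read against it.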

Other observations

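Of the tested genes within 100 kb of called matrix genes outside the LUM locus, 2 passed, AIF1L and NRCAM, beside 15.0% of all tested genes. With all 6 libraries MON1B, SYCE1L, RHBDD1, COL4A3, ZNHIT6, TTC39C, DLD, LAMB1, SHCBP1L, NUP214, ZNF319, USB1 and CFAP20 did not pass. No excess of calls near matrix genes is read from this. AIF1L, which lies 2.003 kb from LAMC3 on chromosome 9, had 21, 18 and 20 control counts and 0, 1 and 0 knockout counts (edgeR adjusted p = 0.0014). NRCAM, a neural cell adhesion gene 17.3 kb from LAMB4, stood at 1.97 ± 0.203 CPM in controls and fell to 1.19 ± 0.129 CPM (log2 -0.72, SE 0.17, edgeR adjusted p = 0.028); this call was lost with the replicate block (0.069), with DESeq2 (0.10) and in 5 of the 6 fits without 1 library (up to 0.12). DLD, 91.8 kb from LAMB4 on the other side, did not pass (log2 -0.15, edgeR adjusted p = 0.22). It was lower after the GC correction (log2 -0.17, edgeR adjusted p = 0.0021) and without knockout replicate 3 (log2 -0.23, edgeR adjusted p = 1.8e-04). These genes were named after their values were seen. CSGALNACT1, a chondroitin chain elongation gene, had 49 control and 5 knockout counts, a ratio of 9.52 with a 95% exact counting interval of 3.82 to 30.6.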
